A study of Mus musculus with 2 samples.

Results

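USF1 bound 1632 places in introns of protein-coding genes where the canonical E-box, the palindromic hexamer CACGTG, lay within 50 bp of the peak summit. These intronic canonical sites were taken from the authors' mm9 list of 10624 peaks, of which they made up 15.4%. Each summit lay over 1 kb and up to 100 kb from the nearest 5′ end of a protein-coding transcript, within a protein-coding gene and outside every exon of that gene's protein-coding transcripts. They were 28.8% of the 5658 peaks that held CACGTG and 51.2% of the 3185 intronic peaks at the same distances. Because CACGTG was part of the choice, its presence is no result. The sites fell in 1320 host genes, on 20 chromosomes.

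The study measured USF1 by chromatin immunoprecipitation and sequencing (ChIP-seq) with an antibody to USF1. The cells were CH12.LX, an immortalized B-cell lymphoma line, and the labels name the mouse strain it came from as B10.H-2aH-4bp/Wts. There was 1 group of 2 biological replicates, with no treatment, altered genotype or second cell type, so no condition could be compared. Both replicates came from 1 line, and the labels give its age as unknown. The mm9 list was made from both replicates together, and further lists for each replicate were in mm10. No expression values were used here, so the B-cell label was not checked against marker genes. The sources used here give no read totals, so the depth is unknown.

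USF1 is a basic helix-loop-helix leucine zipper factor that binds the E-box as a dimer, each subunit contacting one side of the palindrome. MYC and MAX, MITF, TFE3 and TFEB, SREBP, and the clock factors CLOCK and BMAL1 recognise the same hexamer, and bases beside it are known to help separate them. A methylated CpG in the centre of CACGTG is known to weaken binding of several of these factors. Introns can hold enhancers and unannotated promoters, but a peak alone does not tell which.

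The windows of the 8 strongest sites show what a bound intronic E-box looked like in its surroundings. Each runs from 50 bp before to 50 bp after the summit on the mm9 plus strand, and capitals mark CACGTG.
Eif4e: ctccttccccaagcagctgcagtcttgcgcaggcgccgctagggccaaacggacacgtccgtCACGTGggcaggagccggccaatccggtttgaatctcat
Skap1: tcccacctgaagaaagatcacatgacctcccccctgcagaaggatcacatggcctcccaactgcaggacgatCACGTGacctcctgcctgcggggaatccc
Tnrc6b: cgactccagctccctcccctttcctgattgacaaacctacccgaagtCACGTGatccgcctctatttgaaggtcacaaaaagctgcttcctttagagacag
AI480653: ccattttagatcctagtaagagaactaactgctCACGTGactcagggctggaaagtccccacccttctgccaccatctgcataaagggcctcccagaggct
Rara: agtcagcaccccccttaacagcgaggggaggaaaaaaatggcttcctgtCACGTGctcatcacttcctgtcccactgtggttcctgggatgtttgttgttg
Ubash3b: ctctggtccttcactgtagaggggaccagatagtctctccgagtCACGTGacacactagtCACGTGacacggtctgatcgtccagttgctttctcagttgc
Cpt1a: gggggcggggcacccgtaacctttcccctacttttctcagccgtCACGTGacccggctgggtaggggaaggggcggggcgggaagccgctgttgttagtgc
Zcchc2: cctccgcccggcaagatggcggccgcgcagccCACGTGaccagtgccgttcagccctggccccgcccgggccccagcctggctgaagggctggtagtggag

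These windows lie, in the same order, at chr3:138190106-138190206, chr11:96558322-96558422, chr15:80628929-80629029, chr16:31067002-31067102, chr11:98803481-98803581, chr9:40881969-40882069, chr19:3325483-3325583 and chr1:107890548-107890648. The Skap1 window carried a repeated unit with E-boxes starting at window positions 19, 46 and 73; the first and second were CACATG, and the third was CACGTG. In Ubash3b a pair of CACGTG copies started 16 bp apart, each followed by acac. The AI480653 copy ran straight into an AP-1 string, described further on. In 5 of these 8 windows the plus strand read TCACGTGA.

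A further 4 windows, on the plus strand with CACGTG in capitals, show the strongest sites with the octamers ACACGTGA and CCACGTGG, and the strongest sites in a B-cell transcription factor gene and in a B-cell receptor pathway gene.
AW555464: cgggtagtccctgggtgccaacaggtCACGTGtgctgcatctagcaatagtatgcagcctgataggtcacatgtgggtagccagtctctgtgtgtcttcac
Sept9: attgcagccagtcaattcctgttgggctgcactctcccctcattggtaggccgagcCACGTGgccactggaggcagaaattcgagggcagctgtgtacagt
Ikzf3: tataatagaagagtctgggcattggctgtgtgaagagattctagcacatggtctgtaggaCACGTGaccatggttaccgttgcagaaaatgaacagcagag
Nfkb1: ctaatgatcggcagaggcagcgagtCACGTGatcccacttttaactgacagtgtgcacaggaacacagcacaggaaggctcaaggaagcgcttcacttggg

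They lie at chr12:113981975-113982075, chr11:117180121-117180221, chr11:98340480-98340580 and chr3:135291651-135291751. The Ikzf3 and AW555464 windows held CACATG as well.

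The strongest peak of the whole mm9 list was the Eif4e site. Signal here is the authors' value for each peak, whose scale the sources do not state, so it orders peaks within a list and has no replicate error in the pooled mm9 list. Eif4e, which encodes the cap-binding translation initiation factor, had a signal of 7241 at chr3:138189850-138190352, in intron 1 of 7. Its summit was 1001 bp from the nearest 5′ end, so it passed the 1 kb limit by the smallest margin, together with Chst11 at 1001 bp and a signal of 60.4. The next nearest inside was 2310021P13Rik at 1003 bp with 71.7, and just outside lay Kctd17 at 995 bp with 35.3, Slc30a5 at 994 bp with 39.3 and Ndufv3 at 987 bp with 154. At the far limit, Sh3rf1 at 99852 bp had 41.2, Col24a1 at 99352 bp had 511 and Grid1 at 99350 bp had 91.8. Just beyond it, Pde10a at 100322 bp had 85.9, Sh3pxd2a at 102040 bp had 216 and Ttc27 at 102260 bp had 41.1. Apart from Eif4e, the sites at the limits lay between 35.3 and 511.

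Skap1, a Src kinase-associated adaptor known from T cells, held the second strongest site, with a signal of 3335 in intron 4 of 11. It lay 80.4 kb from the nearest protein-coding 5′ end, which was that of Snx11 and not of Skap1. Tnrc6b, a scaffold of microRNA silencing, followed at 2209 in intron 2 and 39.0 kb from its own start. AI480653 had 2049 at 14.5 kb. Rara, the retinoic acid receptor alpha, had 1922 at 2.51 kb, and Ubash3b, a phosphatase that dampens antigen receptor signalling, had 1890 at 5.57 kb. Cpt1a, which admits long-chain fatty acids to mitochondria, had 1731 at 2.23 kb, and Zcchc2 had 1486 at 3.33 kb. So the strongest sites came both from just beyond a promoter and from deep inside large introns.

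Among the 25 strongest sites, with signals down to 966, 13 were in a first intron, 8 lay within 5 kb of a 5′ end and 14 lay over 10 kb away. Mcoln3, an endolysosomal cation channel, had 1452, and Hip1, an endocytic adaptor, had 1409. The chromatin remodeller Chd7 had 1400, hexokinase 2 (Hk2) had 1353 in intron 7, and the Hedgehog receptor Ptch1 had 1333. Nfkb1, which encodes the p105 precursor of the NF-κB subunit p50, had 1239 in intron 6. Other sites were in Sept9 (1255), a septin; Trak1 (1210), a mitochondrial transport adaptor; Zfp91 (1117), Fbxl22 (1109), Zcchc24 (1078) and Ugcg (1076), the glucosylceramide synthase.

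In 4 of these 25 sites the nearest protein-coding start belonged to a gene other than the host. Cacna1s and Scn4a encode muscle channels, with signals of 1380 and 1030; the nearest starts were those of Kif21b at 14.2 kb and Cd79b at 10.3 kb. Cd79b encodes a signalling chain of the B-cell receptor. Itpkb, an inositol trisphosphate kinase, had 1068 and lay 34.8 kb from the start of Gm5069. The remaining named sites were in 9030617O03Rik with 977 and in Slc17a9, a vesicular nucleotide transporter, with 966. Over all 1632 sites the nearest start was the host's own in 1331 (81.6%, Wilson 95% interval 79.6–83.4) and another gene's in 301. Distance alone therefore did not always point to the gene that held the site.

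In median signal the sites stood close to the whole list and to canonical sites between genes. The intronic canonical sites had a median signal of 62.5, with quartiles of 40.1 and 131. All 10624 peaks had 62.9, with quartiles of 39.6 and 146. The 1606 intergenic peaks with CACGTG at the same distances had 62.2, with quartiles of 39.8 and 126. The 1748 promoter peaks with CACGTG, within 1 kb of a 5′ end, had 216, with quartiles of 69.8 and 890. Among the 1000 strongest peaks of the list were 82 of the intronic canonical sites (5.02%) and 621 of the promoter ones (35.5%). Over all peaks that share was 9.41%, and for intergenic canonical peaks it was 5.92%.

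Intronic peaks without the canonical hexamer differed most at the strong end. The 1213 intronic peaks with CACATG and no CACGTG within 50 bp had a median of 55.8, with a lower quartile of 38.7 and a highest signal of 1675. Of them, 21 (1.73%) were among the 1000 strongest peaks, against 5.02% of the intronic canonical sites. Of the intronic canonical sites 49.8% were in the stronger 50% of all peaks, against 44.8% of the CACATG-only peaks. That difference of 4.99 percentage points had a two-sided Fisher's exact p of 0.00883 and an adjusted p of 0.0547, so it missed the 0.05 threshold over the 31 share comparisons made. It passed with the E-box sought within 100 bp (adjusted p 0.0468) and with exons of all biotypes removed (adjusted p 0.0243). It missed in every other setting where it could be tested. Among these were an E-box within 25 bp (adjusted p 0.0504) and sites over 1 kb from the 5′ end of any transcript (adjusted p 0.0656). For sites over 5 kb from a start the difference was 3.01 points (adjusted p 0.526). In these tests peaks, not samples, are the units, so p covers the number of peaks only, and neighbouring peaks need not be independent.

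**Figure D1:**
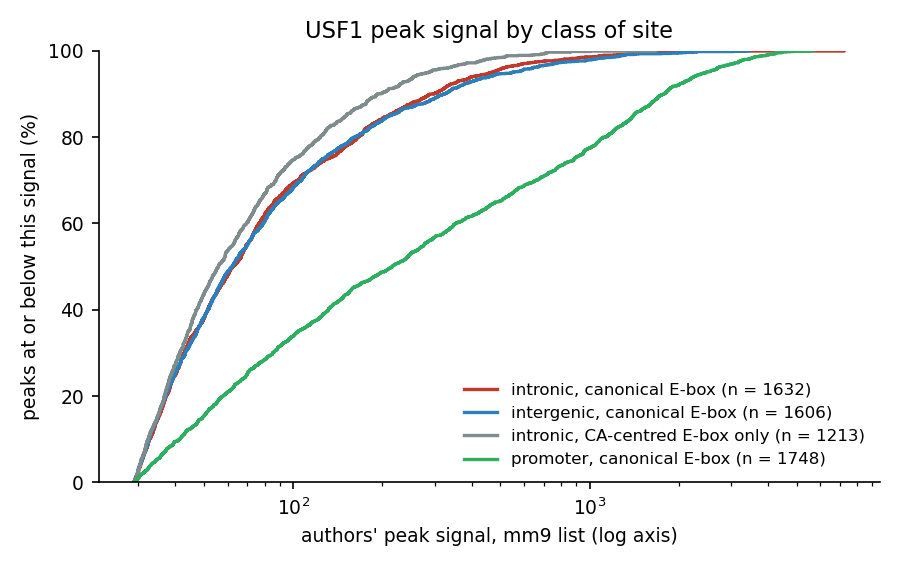
Cumulative share of peaks (vertical axis, percent) at or below a given signal of the authors' mm9 list (horizontal axis, log scale), 1 line for each class of site. The lines of intronic and intergenic canonical sites run together, with medians of 62.5 and 62.2, and the promoter line lies far to the right with a median of 216.

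The rule required the hexamer within 50 bp of the summit, so its nearness is partly set by the choice and is given as a description. The median distance from summit to the centre of the nearest CACGTG was 10.5 bp, in 759 sites (46.5%) it was at most 10 bp, and in 15 it exceeded 40 bp. Intergenic and promoter canonical peaks also had a median of 10.5 bp.

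Few of the genome's intronic hexamers were bound. Introns admitted by the same rule held 87956 copies of CACGTG, and 1702 of them (1.94%) lay within 50 bp of a summit; these are called bound below. The count exceeds that of the sites because some summits had more than 1 copy. Copies in repeats, where short reads may not be placed, were not set apart. Since binding chose the sites, bound shares are given as descriptions with Wilson 95% intervals, which cover counting error only.

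Bound copies differed from the others in the bases beside the hexamer. Reading both strands as 1 gives 10 octamers. CCACGTGA was the commonest among the sites, with 467 (28.6%), and TCACGTGA came next with 382 (23.4%). TCACGTGA had the fewest copies in introns, and 9.40% of its 4201 copies were bound (8.56–10.3), against 4.39% of CCACGTGA copies (4.02–4.79). CCACGTGG, GCACGTGA and ACACGTGA had 2.20%, 2.05% and 1.85% bound. At the low end, 0.268% of ACACGTGC copies (0.193–0.372) and 0.199% of ACACGTGT copies (0.124–0.319) were bound, although ACACGTGC was the commonest octamer in introns, with 13062 copies.

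The next base out separated them further. Each copy has a pair of flanks, the dinucleotides that follow CACGTG when it is read outward on either strand. Flanks AC were bound in 11.3% of 9570 cases and AT in 5.17% of 7634. With the same A, AG and AA stood at 0.988% and 0.386%. Among flanks beginning with G, GT and GC stood at 3.25% and 3.17%, and GA at 0.568%. The lowest of the 16 was CA, with 0.293% of 16046. In each of the 4 sets that share a first base, the pair ending in C or T ranked above the pair ending in A or G.

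The share of bound copies climbed with the number of AC flanks. It was 1.00% of 78936 copies with none (0.934–1.07), 8.77% of 8470 copies with 1 (8.19–9.39) and 30.7% of 550 copies with both (27–34.7). Copies with both read GTCACGTGAC, and they made up 0.625% of the intronic copies but 10.2% of the sites (166 of 1632). Of the 12 windows printed above, 11 have an AC flank on at least 1 side, where a GT just before CACGTG on the printed strand is an AC flank on the other. Those of Ubash3b and Cpt1a have both, and that of Sept9 has none. Among the 25 strongest sites, 19 had 1 AC flank, 3 had both (Ubash3b, Cpt1a and Chd7) and 3 had none (Sept9, Ugcg and Slc17a9). After GTCACGTGAC, the decamer ATCACGTGAC was bound in 21.2% of 641 copies, ACCACGTGAC in 15.2% of 699 and GCCACGTGAC in 15.1% of 737. At the other end, none of 1706 copies of TCCACGTGAA was bound, which allows a share of up to 0.225%. None of 1221 copies of TACACGTGCA was either, which allows up to 0.314%. TCCACGTGAA contains CCACGTGA, the commonest octamer among the sites.

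Median signal did not follow the same order. Sites with no AC flank had a median signal of 57.2, sites with 1 had 74.1 and sites with both had 52.7. Of these 3 sets, 45.1%, 57.2% and 39.8% were in the stronger 50% of all peaks, and 2.10%, 7.66% and 7.23% were among the 1000 strongest. At the strong end, sites with both AC flanks thus stood near those with 1 and above those with none. Sites with 1 AC flank also had the highest median in each replicate on the mm10 scale. Over 425, 422 and 98 sites the medians were 30.1, 36.7 and 31.4 in replicate 1 and 34.4, 45.8 and 34.9 in replicate 2. Between genes the medians were 62.5, 65.1 and 56.1, and the shares among the 1000 strongest were 4.37%, 6.90% and 8.00%. Among octamers CCACGTGA had the highest median, 77.5, and TCACGTGA had 59.1.

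**Figure D2:**
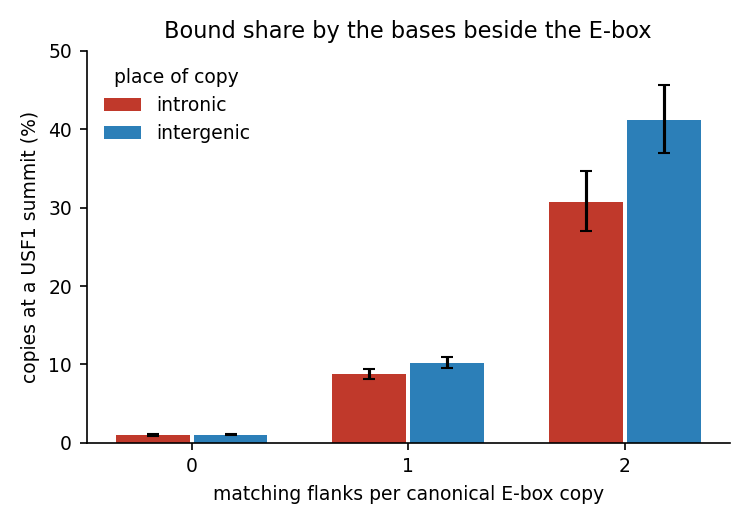
Share of genomic CACGTG copies within 50 bp of a USF1 summit (vertical axis, percent), by how many of the copy's flanks were the dinucleotide AC (horizontal axis), for copies in introns and between genes; error bars are Wilson 95% intervals. The intronic share rises from 1.00% through 8.77% to 30.7%, and the intergenic share ends at 41.2%.

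TCACGTGA was less common in introns than between genes. It was the octamer of 23.4% of the intronic canonical sites and of 29.5% of the intergenic ones (odds ratio 0.730, Fisher's exact two-sided p 9.3e-05, adjusted p 0.00288). The bound share of its copies was also lower, at 9.40% in introns against 12.0% between genes (11.1–13.1). For copies with both flanks AC it was 30.7% against 41.2% (37.0–45.6). CCACGTGA went the other way, at 4.39% in introns and 3.63% between genes (3.32–3.97). The TCACGTGA difference lost the threshold among the stronger 50% of peaks and for sites over 5 kb from a start, where it was −5.23 and −5.05 percentage points (adjusted p 0.258 and 0.0622).

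Octamers that are not palindromes can be written on either strand, and no strand preference was detectable. CCACGTGA was read on the host gene's coding strand in 219 of 457 sites (47.9%, 43.4–52.5). The other 5 octamers tallied ranged from 45.6% to 55.0%, each with an interval that included 50%.

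A second CACGTG was present in 68 sites (4.17%), against 4.86% of intergenic canonical peaks (adjusted p 0.822). Start-to-start spacing ranged from 9 to 79 bp with a median of 20.5 bp, and no spacing occurred in more than 5 sites. After Ubash3b, the strongest of these was Hip1, with copies 12 bp apart. Sites with 2 or more copies had a median signal of 74.0, and sites with 1 copy had 61.8.

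Strings of other factors were counted within the same 50 bp of the summit, on both strands. AP-1, searched as TGACTCA or TGAGTCA, occurred in 93 sites (5.70%) and in 1.65% of windows 500 bp away. Its opening TG can be the TG that ends CACGTG, and in 35 of the 93 sites the string overlapped the E-box. The AP-1 excess over the windows away is thus partly set by the choice of sites. The PU.1 strings GAGGAAGT or GGGGAAGT occurred in 2.70% against 0.950% away, and the M-box TCATGTGA, bound by MITF and its relatives, in 2.14% against 0.337%. The M-box contains CACATG on its other strand. RUNX, searched as TGTGGT, occurred in 10.5% against 8.52%. The octamer ATGCAAAT of OCT2 occurred in 0.797% against 0.521%. A match is a string of letters, not evidence of the factor, and no test was made against the windows away.

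AP-1 strings were less common at these sites than at CACATG-only intronic peaks, 5.70% against 9.07% (odds ratio 0.606, Fisher's exact adjusted p 0.0103). RUNX strings were too, 10.5% against 14.7% (odds ratio 0.685, Fisher's exact adjusted p 0.0103). CACATG reads CATGTG on its other strand and so can supply the TGTG of TGTGGT, which CACGTG cannot. The RUNX difference is thus partly set by the choice of the CACATG-only peaks, where overlap with the E-box was not counted. Against intergenic canonical peaks neither passed: AP-1 had 6.29% there (adjusted p 0.922) and RUNX 9.65% (adjusted p 0.857). NF-κB strings, named here without their letters, occurred in 10 sites and in 1 intergenic canonical peak (0.613% and 0.0623%, adjusted p 0.06), and in 0.660% of CACATG-only peaks. The strongest of these 10 were in AI480653 (2049) and Rassf3 (588), the latter named after its value was seen.

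In 35 of the 93 sites with an AP-1 string, that string overlapped the E-box by continuing out of it, that is, CACGTG was followed by ACTCA or AGTCA. AI480653 had the strongest of them, and the 35 had a median signal of 52.7. Of the 259 intronic copies whose flank AC ran on into AP-1, 12.7% were bound (9.22–17.4), and of the 8761 other copies with a flank AC, 879 were (9.42–10.7). The intervals overlapped. For the flank AG the shares were 1.27% of 158 copies (0.348–4.50) and 1.00% of 9391 (0.819–1.22). A difference with the AP-1 continuation was not detectable at this number of copies.

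Place within the gene went with binding as well. The sites lay at a median of 14.6 kb from the nearest protein-coding 5′ end, in introns with a median length of 16.4 kb, 2.97 kb from the nearest exon of the transcript. Yet 4.49% of intronic copies 1 to 2 kb from a start were bound (3.87–5.20), 2.28% at 2 to 5 kb (2.00–2.60), and 1.35% at 50 to 100 kb (1.19–1.54). Copies in intron 1 were bound in 2.60% (2.41–2.81), in intron 2 in 2.17%, and from intron 6 on in 1.46%. First introns held 606 of the 1612 sites with a numbered intron (37.6%), against 36.7% of CACATG-only intronic peaks (adjusted p 0.985). The remaining 20 sites fell inside a gene span but in no intron of a protein-coding transcript. One gene model, Gm20388, put 20 sites in its first intron.

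Base composition around the copy moved in the same direction. CpG observed over expected was computed over 250 bp on each side of the copy. Copies below 0.2 were bound in 1.41% (1.29–1.55), from 0.2 to 0.4 in 2.07%, from 0.4 to 0.6 in 2.62%, and above 0.6 in 4.47% (53 of 1185, 3.44–5.80). The same held within CCACGTGA, from 2.81% of 4195 copies below 0.2 (2.35–3.36) to 6.93% of 1039 copies from 0.4 to 0.6 (5.54–8.64). Within TCACGTGA the shares were 7.32% (6.06–8.82) and 12.4% (9.91–15.4). Above 0.6, 12.5% of 112 CCACGTGA copies (7.59–19.9) and 11.8% of 51 TCACGTGA copies (5.51–23.4) were bound. Within TCACGTGA no further rise was thus seen, though the interval is wide. For peaks the same 250 bp on each side were centred on the summit. On that measure the median of the sites was 0.267, against 0.754 at promoter canonical peaks. Eif4e (1.06), Ptch1 (1.01), Cpt1a (0.983), Zfp91 (0.783) and Zcchc2 (0.769) were the 5 of the 25 strongest above 0.6 around the summit. Methylation was not measured here, and how distance and CpG content each bear on binding was not tested.

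**Figure D3:**
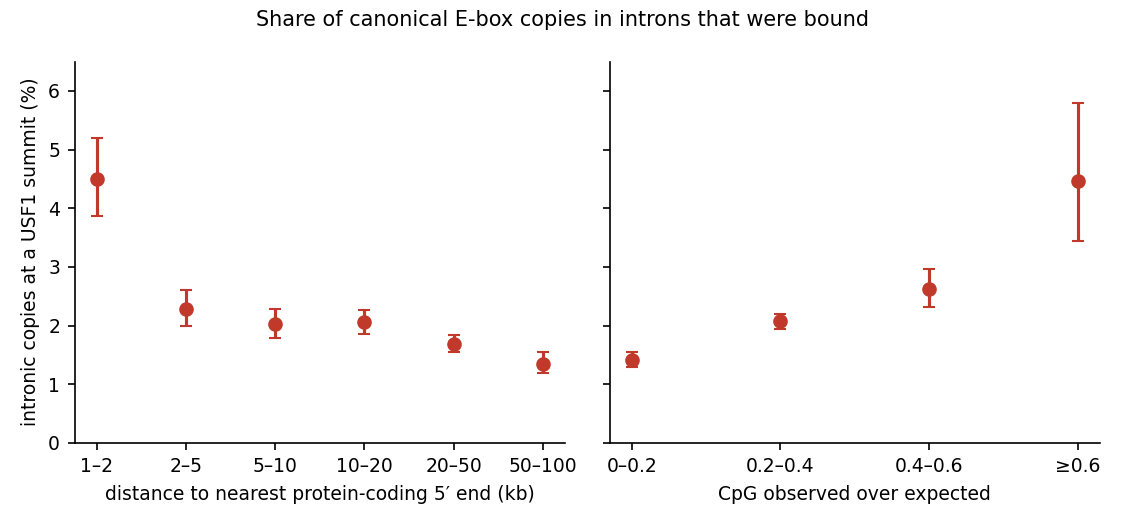
Share of intronic CACGTG copies within 50 bp of a USF1 summit (vertical axes, percent), by distance to the nearest protein-coding 5′ end in kb (left) and by CpG observed over expected (right); points are shares and bars are Wilson 95% intervals. The share falls from 4.49% at 1 to 2 kb to 1.35% at 50 to 100 kb, and rises from 1.41% to 4.47% with CpG.

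Starts of non-coding transcripts lay near some of the sites. Non-coding here covers every transcript not annotated as protein-coding, including those of protein-coding genes. Such a 5′ end lay within 1 kb of 92 sites (5.64%), against 3.36% of intergenic canonical peaks (odds ratio 1.72, Fisher's exact adjusted p 0.017) and 5.77% of CACATG-only intronic peaks (adjusted p 1). Transcripts of protein-coding genes lie inside gene spans, so the difference from intergenic peaks is partly set by the annotation. Without these 92 sites 1540 remained.

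Of 18725 protein-coding genes with an intron that the rule admits, 7.05% held at least 1 site. Size went with that share. It rose from 0.774% in the fifth of genes with the least such intron, through 1.79%, 4.67% and 8.76%, to 19.3% in the fifth with the most. Host genes had a median length of 74.1 kb, against 21.3 kb for all of these genes. Counts in gene lists below are therefore set beside the length of intron, except for the T-cell markers. Here and in the lists, each of the 37 sites in 2 overlapping genes was credited to 1 gene only. That was the longer gene where it had an intron there, so a gene sharing a site can count as holding none.

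Most hosts had a single site: 1089 of 1320. The other 231 shared 543 sites. Gm20388 had the most, with 20, but its annotated model spans 4435 kb, and 7 of these sites also lie in another, shorter gene. Tubb3, a neuronal tubulin, was one of those, with 416. Fgfr2, with 5 sites, likewise has a model of 3009 kb in which 4 of the sites lie in another gene too. Apart from these models, Prkce, the protein kinase C epsilon gene, held 7 sites with signals of 313, 119, 109, 62.8, 52.6, 40.1 and 31.7. Ppp1r16b, a regulatory subunit of protein phosphatase 1, held 5, with 234, 222, 79.7, 75.6 and 42.6. All 5 lay in intron 3 within 21.5 kb. A further 7 genes held 4 sites each: Arhgap26, Epha4, Mbp, Rbfox3, Sema4b, Tex14 and Vgll4, whose strongest sites ranged from 73.3 in Epha4 to 492 in Sema4b. In Prkce and Ppp1r16b the strongest sites carried CCACGTGA, and sites within 1 gene differed several-fold in signal.

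Several genes of B-cell transcription factors held sites. Of 29 listed genes with an admitted intron, 11 held a site (37.9%, 22.7–56.0, beside 7.05% of all genes), or 5.58 sites per Mb of intron against 2.23 over all genes. These genes had longer introns, with a median of 51.2 kb against 16.7 kb, and even the fifth of genes with the most intron stood at 19.3%. Ikzf3, the Ikaros-family factor Aiolos, had 807 in intron 6. Ebf1, a factor of early B-cell development, had 318, Bcl11a had 177, and Pax5, the keeper of B-cell identity, had 153 and 83.3, both in intron 5. None of these 4 genes had a promoter peak, while 4 of the other 7 hosts on the list did: Runx1 (1851), Runx3 (244), Ikzf1 (136) and Irf4 (46.6), named after their values were seen. Over all 1320 hosts the share was 21.1%, and the 4 genes without one were picked by intronic signal. The list was drawn up with earlier results of these data known, and no set test was made.

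B-cell receptor and signalling genes held 16 sites in 8 of 34 genes (23.5%, 12.4–40), or 8.56 per Mb, with a median of 40.5 kb of intron. Nfkb1 had 1239, 69.8 and 30.4. Ptpn6, the phosphatase SHP-1 that restrains the receptor, had 756 at 2.55 kb, and Prkcb, the kinase that links the receptor to NF-κB, had 466, 82.8 and 39.8, all in intron 2. Rasgrp3, a Ras exchange factor, had 282, 67.1 and 41.3. None of the 8 genes had a promoter peak, beside 21.1% of all 1320 hosts. With 8 genes, a difference from that share cannot be told. Among T-cell markers, Cd247 (59.1) and Cd6 (36.5) held sites. Liver markers held them in 2 of 20, Hnf4a (33.0) and Alb (32.5), or 5.12 per Mb with a median of 8.50 kb of intron. Neuron markers held them in 3 of 19 (15.8%), led by Rbfox3 (155), or 2.54 per Mb with 53.1 kb. The liver density was close to the 5.58 of the B-cell factors, though it rests on 2 sites. These T-cell and liver marker sites were all below the median of 62.5.

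Partial lists of pathways known to use E-boxes held few sites each, with intervals that included 7.05%. They describe the listed genes only and not whole pathways. Hosts outside the lists, named after their values were seen, included Mcoln3 (1452), Tcfap4 (285), Atg2b (111) and Lamtor3 (84.8). Lysosomal and vacuolar ATPase genes held them in 4 of 45 (8.89%, 3.51–20.7), or 4.55 per Mb with a median of 14.4 kb of intron. These were the protease Ctsb (494), the glycosidases Gusb (189) and Glb1 (185), and the saposin precursor Psap (33.1), and each of the 4 had a promoter peak. Autophagy and mTORC1 genes held sites in 5 of 38 (13.2%, 5.75–27.3), or 3.22 per Mb with 31.5 kb, among them Fnip1 (137), Atg5 (94.4), Rptor (92.8) and Wipi1 (57.0). Clock genes held sites in 3 of 22 (13.6%, 4.75–33.3), or 2.60 per Mb with 26.8 kb. They were Dbp (518), a transcription factor driven by the clock, Per1 (487) and Nr1d1 (162), both repressors of the loop, all 3 also with a promoter peak. Over all 1320 hosts 21.1% had a promoter peak, and the lysosomal and clock counts rest on few genes. Genes of bHLH-ZIP factors held sites in 3 of 18 (16.7%, 5.84–39.2), or 5.45 per Mb with 11.6 kb. The 3 listed hosts were Mxi1 (576) and Mnt (371), MAX partners that oppose MYC, and Max itself (82.5). Tfe3, Tfeb and Tfec were listed but not matched, so they were not assessed.

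Endoplasmic reticulum stress genes held sites in 3 of 20, or 6.83 per Mb with 14.7 kb, with Herpud1 at 288, the sensor Atf6 at 247 and 148, and Creb3l2 at 37.3. Cell cycle and p53 genes held 1 site in 30 genes, in Cdk6 (66.6), or 1.38 per Mb with 9.78 kb. None of the 23 genes of sterol and fatty acid synthesis held one, with a median of 18.3 kb of intron, which allows a share of up to 14.3%. Of the 12 lists, those of B-cell transcription factors and of the B-cell receptor had intervals wholly above 7.05%, a reading that makes no allowance for their longer introns. Per Mb of intron, the endoplasmic reticulum stress, bHLH-ZIP, liver and lysosomal lists stood as high as or near the B-cell factor list, each on 2 to 4 sites.

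Most hosts had no USF1 peak at their promoter. A promoter peak, with a summit within 1 kb of a 5′ end of the gene, was present in 279 of 1320 hosts (21.1%, 19.0–23.4), beside 16.3% of the 18725 genes and 24.9% of the hosts of CACATG-only intronic peaks (22.3–27.7). In these 279 genes the intronic site had a median signal of 83.4 and the promoter peak 112, a median difference of −0.36 on the log2 scale. In 117 (41.9%) the intronic site was the stronger. Hk2 had 1353 in the intron and 88.1 at the promoter, Rara had 1922 and 278, and Cpt1a had 1731 and 547. In Ctsb and Per1 the promoter was stronger, with 1159 beside 494 and 724 beside 487.

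**Figure D4:**
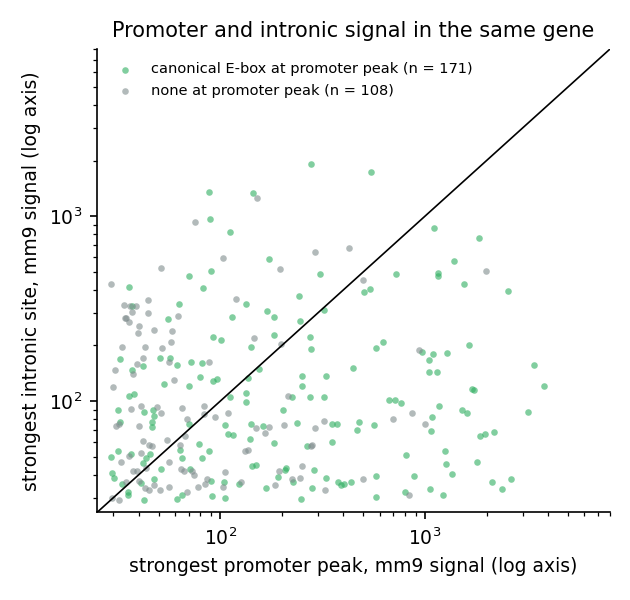
Signal of the strongest promoter peak (horizontal axis) and of the strongest intronic canonical site (vertical axis) in the 279 genes with both, from the mm9 list on log axes; each point is a gene, coloured by whether the promoter peak held CACGTG, and the line marks equal signal. Points lie on both sides of the line, with 117 genes above it.

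The replicates could be compared only in mm10, for which no genome sequence was used here, and coordinates were not converted. A site was looked up as the mm10 region at the same distance, within 100 bp, from an end of its host gene. For 707 sites the host had the same length in both builds. Of these, 684 had a region in replicate 1 (96.7%), 700 in replicate 2 (99.0%), 679 in both (96.0%, 94.3–97.2) and 2 in neither. The replicate lists are relaxed and contain background. In the authors' stricter mm10 lists, 531 (75.1%, 71.8–78.2) were in the optimal one and 444 (62.8%) in the conservative one. CACATG-only peaks stood at 70.2% and 57.9%.

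Replicate signal was read for 945 sites, those matched from either end of the host gene to an optimal mm10 region that overlapped a region of each replicate. This set includes hosts whose length differs between builds, and it leaves out sites absent from the optimal list, which the authors thresholded by IDR. The medians were 33.2 in replicate 1 and 38.1 in replicate 2, and the log2 ratio of replicate 2 to replicate 1 had a median of 0.18 and an SD of 0.52. In 66 sites (6.98%) they differed by more than 2-fold, with 51 higher in replicate 2 and 15 in replicate 1. Spearman's rho across these sites was 0.849, as a description, since sites share libraries. A match by distance may pair a site with another region, and whether any did was not tested. A site with an mm9 signal of 73.8 read 235 in replicate 1 and 251 in replicate 2. The next of the 945 in mm9 order read 32.8 and 31.9. Eif4e had 284 and 268, Skap1 285 and 270, Tnrc6b 261 and 264, and Rara 250 and 293. In mm10 the strongest sites were thus compressed: Eif4e and Skap1 were nearly equal there, while in the mm9 list they stood at 7241 and 3335. In 494 genes with exactly 1 mm9 peak and 1 optimal mm10 region, 490 (99.2%, 97.9–99.7) had a region in both replicates. The choice of genes by the optimal list, together with the relaxed replicate lists, largely fixes that share, so it is no measure of reproducibility.

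**Figure D5:**
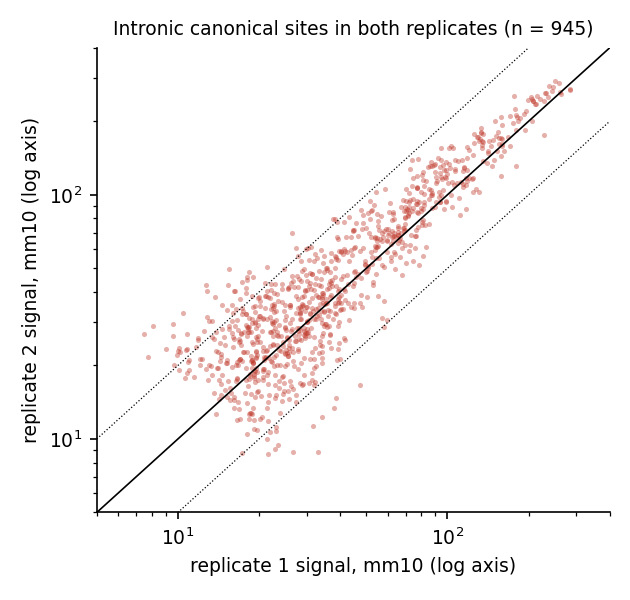
Signal of 945 intronic canonical sites in replicate 1 (horizontal axis) and replicate 2 (vertical axis), from the authors' mm10 lists on log axes; the solid line marks equal signal and the dotted lines 2-fold differences. The points follow the solid line, with 66 outside the dotted ones, mostly at low signal.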

How the data were processed

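Per the labels, USF1 ChIP-seq was done in 2 biological replicates of CH12.LX. The submitters deposited region lists; per the deposited readme files, the mm9 list came from both replicates together, as did the mm10 lists thresholded by IDR, while each replicate also has a relaxed mm10 list. The sources used here name no aligner, caller or threshold. The deposited signal (column 7) was used as given; its scale is not stated. In the deposited mm9 list, column 9 (−log10 q) only broke ties in signal; in the deposited mm10 lists that column was treated as a score.

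Summits were placed on Gencode vM1 and NCBIM37 (mm9), and coordinates are 1-based. A window of 50 bp on each side was searched on both strands. Octamers were read from the copy nearest the summit, and introns were numbered in the longest protein-coding transcript of the longest host gene. Shares were compared by two-sided Fisher's exact tests, adjusted by Benjamini-Hochberg over 31 comparisons (threshold 0.05). Intervals are Wilson 95% and cover counting error only. mm10 gene ends came from RefSeq GRCm38.p6, and matching by distance was chosen after seeing the files. Named genes are the hosts of the 25 strongest sites, up to 4 per list and those with the most sites; others are named at the limits of the rule or as stated. Members, the 12 gene lists and the 13 motif sets were chosen with earlier results of these data known. Listed genes not matched were left out, among them Spi1, Syk, Tfe3, Tfeb and Tfec. The full count of the T-cell marker list is not reported here. Classification and tests were checked on simulated data. Python 3.11.15, scipy 1.17.1, pandas 2.3.3 and numpy 2.4.6 were used.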

Additional observations from a re-analysis of the deposited data

How the results depend on the processing

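Of 53 alternative values, 39 kept their direction and side of the threshold, or for untested values stayed within their interval. With only the stronger 50% of peaks, 812 sites were left, the TCACGTGA difference between intronic and intergenic sites was −5.23 percentage points (adjusted p 0.258), 16.8% of hosts had a promoter peak and 3.81% of genes held a site. With the E-box within 25 bp, 6.37% of genes held a site. The excess over CACATG-only peaks in the stronger 50% passed at 5.04 points within 100 bp and at 5.70 outside exons of any biotype. It did not pass elsewhere, and over 5 kb from a start it was 3.01 points (Fisher's exact adjusted p 0.526). Over 5 kb from a start the TCACGTGA difference was −5.05 (adjusted p 0.0622), the AP-1 difference from intergenic sites turned to 0.209 (adjusted p 1) from −0.590, and 18.8% of hosts had a promoter peak. The cause of these changes was not tested, beyond fewer peaks being compared. The comparison of the stronger 50% could not be made within that 50%. The share of single-site genes seen in the replicates ranged from 99.2% to 100% when either replicate was left out, was 85.4% in the conservative list, 80.2% among the 8000 strongest regions of each replicate, and 100% in the optimal list; the choice of genes by that list fixes the last and bears on the others. Leaving out Gm20388 and Fgfr2, an alternative chosen after seeing the data, left 1607 sites and changed no call. No paired analysis was possible because there is 1 group. The pooled mm9 list cannot be redone without a replicate, and with depth unknown an unbound copy means only that no listed summit lay near it.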
